A study of Homo sapiens with 6 samples.

Results

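The genes described here encode the subunits of AMP-activated protein kinase (AMPK), the kinases that switch it on, and the sestrins. The set was chosen by gene symbol and holds PRKAA1, PRKAA2, PRKAB1, PRKAB2, PRKAG1, PRKAG2, STK11, CAMKK2, SESN1 and SESN2, 10 of the 27009 genes in the table. All 10 had a row and all 10 passed the filter on low values. RNA was sequenced from 6 libraries labelled Hep3B, a human liver cancer cell line, with a PD-L1 knock out genotype in both groups. The 3 vector libraries (PD-L1-KO-vector) came from knockout cells with the empty lentiviral vector, and the 3 nPD-L1 libraries (PD-L1-KO-nPD-L1) from knockout cells given a PD-L1 gene with a short mutated stretch under the CMV promoter of that vector, by which the study enforced PD-L1 in the nucleus. Both carry the puromycin resistance of the vector, no other treatment or time point is labelled, and the labels do not say whether the libraries of a group came from separate cultures or from 1 clone, so p-values measure the spread between these libraries, which may be technical.

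AMPK is a kinase of energy stress. It is assembled from a catalytic α, a scaffolding β and a nucleotide-sensing γ subunit, each encoded by more than one gene, and it is activated when AMP or ADP binds the γ subunit and an upstream kinase phosphorylates the α subunit. Active AMPK turns on catabolism and autophagy and restrains lipid synthesis and mTORC1, while sestrins are stress-induced proteins that sense leucine, restrain mTORC1 through the GATOR complexes and promote AMPK activity. In the study AMPKα was followed as a partner of nuclear PD-L1. The comparison below asks whether the RNA of the kinase, of its activators and of the sestrins differed between the nPD-L1 and vector libraries. RNA levels were measured, not protein or phosphorylation.

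Values are scaled reads, the reads of a gene divided by a size factor of its library. The libraries held 17427519 to 22253295 reads on genes, and the 10 genes had at least 127 and at most 1800 reads in any library. For SESN1, with 127 to 204 reads, counting error is of the same order as the spread between libraries. Vector replicate 2 stood apart from the other vector libraries, with 883 and 1281 genes over 2-fold apart from vector replicates 1 and 3, against 549 to 646 between any 2 nPD-L1 libraries, and results of the 10 genes are given without a library where leaving it out moved them by over 1.5 times. CD274, which encodes PD-L1, was read at 28.3, 38.4 and 47.8 scaled reads in vector, while the libraries labelled nPD-L1 gave 16.8, 19.2 and 30.9. The difference was -0.76 on the log2 scale (SE 0.34, limma adjusted p = 0.338). CD274 reads therefore did not set the libraries labelled nPD-L1 above the vector libraries. They show no expression of the introduced PD-L1 gene above the vector level, and the groups are compared as labelled.

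The labelled cell type was checked against markers of the liver lineage. Of 8 hepatocyte and hepatoma markers 7 had a row, and their summed level was 976 to 1551 in vector and 1013 to 1143 in nPD-L1 libraries, nearly all of it from FGB, a fibrinogen chain. ALB, which encodes albumin, was at 2.02, 1.13 and 0 in the vector libraries and listed at 0 in all 3 nPD-L1 libraries. APOA1, APOB, TTR and TF stayed at or under 2.89 in all 6 libraries and SERPINA1 lay between 7.91 and 41.4. Hep3B cells are known for making these plasma proteins, so the values go against the Hep3B label in both groups, and the libraries are therefore named by their labels only. Leukocyte and endothelial markers (5 of 7 with a row) summed to 6.06 or less per list in every library. Of 4 fibroblast markers 3 had a row, with sums of 59.2 to 84.8 in vector and 452 to 494 in nPD-L1 libraries. COL1A1, a collagen chain, made up most of both sums and was higher in nPD-L1 (log2 fold change 2.84). The part of this list in the results below was not tested.

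None of the 10 genes was called different between the nPD-L1 and vector libraries. Their limma adjusted p-values ran from 0.128 for PRKAA2 to 0.954 for PRKAB1, against 4.96% of the 15076 genes tested that were called at an adjusted p under 0.05. At an unadjusted p under 0.05, 1 of the 10 passed (PRKAA2, higher in nPD-L1), against 14.2% of all genes in either direction and 9.53% with nPD-L1 higher. edgeR and DESeq2 on the recovered reads also called 0 of the 10, where they called 5.03% and 6.37% of all genes. The fold change was above 0 for 7 of the 10 and the median log2 difference was 0.15, against 46.7% and -0.02 over all genes tested. In bulk RNA, fewer cells with a transcript and less transcript per cell cannot be told apart.

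These small differences were bounded by the data. The 95% intervals of all 10 genes lay within 1 log2 unit of 0 in both directions, that is inside 2-fold, and those of 6 genes within 0.5. The lowest bound was -0.39 (PRKAG1) and the highest 0.81 (PRKAA2). The median size of the difference was 0.18 over the 10 genes and 0.16 over all genes tested. An adjusted p above the threshold does not show that the levels were equal.

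**Figure D1:**
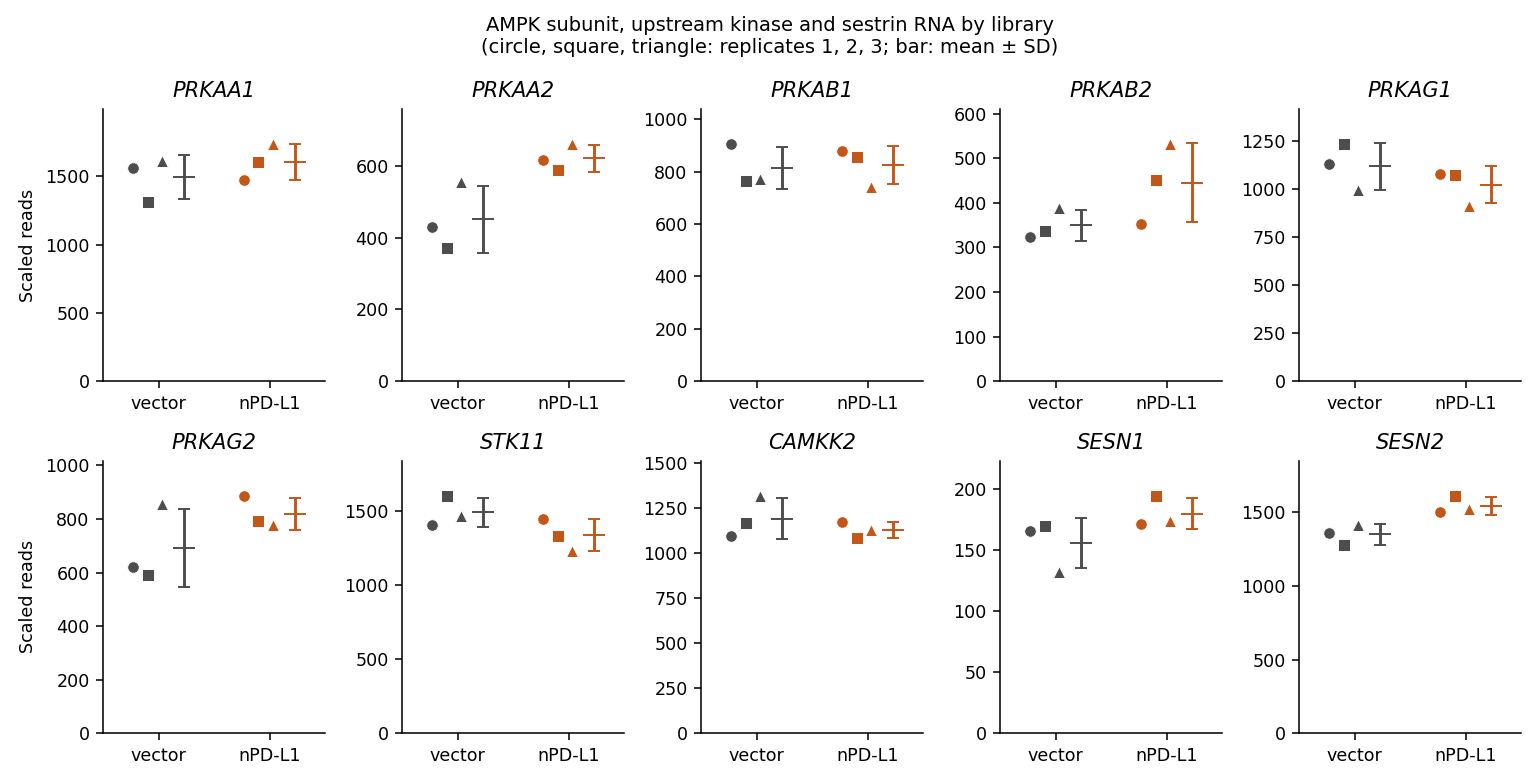
Scaled reads (vertical axes, each starting at 0) of the 10 genes in the 3 vector (grey) and 3 nPD-L1 (orange) libraries, with circle, square and triangle for replicates 1, 2 and 3 and the mean ± SD beside them. The groups overlap in 7 genes, and in PRKAA2, SESN1 and SESN2 every nPD-L1 library lies above every vector library.

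The catalytic subunit gave the largest difference of the set in PRKAA2, which encodes α2, the isoform best known from muscle and also made in liver. PRKAA2 (ENSG00000162409, chr1:56645322-56715335, GRCh38, plus strand, 9 exons) was read at 429, 372 and 554 in the vector libraries and at 614, 587 and 660 in the nPD-L1 libraries. The groups did not overlap, although vector replicate 3 came close to the lowest nPD-L1 library. The mean was 451 ± 93.2 (SD, n = 3) in vector and 620 ± 37.0 (n = 3) in nPD-L1, a ratio of 1.37. The log2 difference was 0.48 (SE 0.15, 95% interval 0.14 to 0.81) with an adjusted p of 0.128 in limma, 0.144 in edgeR and 0.0902 in DESeq2. The value moved with the vector libraries. Without vector replicate 3 the difference was 0.63 and the adjusted p 0.0143, past the threshold, while without vector replicate 2 they were 0.35 and 0.147. Over all fits with 1 library left out, the limma adjusted p ran from 0.0143 to 0.437.

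PRKAA1 encodes α1, the catalytic isoform found in most tissues. PRKAA1 (ENSG00000132356, chr5:40759379-40798374, minus strand, 9 exons) was read at 1564, 1315 and 1615 in vector and at 1472, 1609 and 1736 in nPD-L1. The groups overlapped, with the lowest library in vector replicate 2 and the highest in nPD-L1 replicate 3. The log2 difference was 0.10 (SE 0.11, interval -0.15 to 0.35, adjusted p = 0.741). It was 0.01 without vector replicate 2, 0.05 without nPD-L1 replicate 3 and 0.16 without nPD-L1 replicate 1 or vector replicate 3.

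The α genes are paralogs, so the sequence they share bears on whether reads can be assigned to each. Over 1635 aligned coding bases of the principal transcripts (GENCODE 29) they were 71.1% identical. The longest run that these coding sequences have in common was 24 bases, in the part that encodes the start of the kinase domain. It lies at positions 103 to 126 of the PRKAA1 and 70 to 93 of the PRKAA2 coding sequence. The run is shown because it is the longest coding stretch that cannot separate α1 from α2. Untranslated exon sequence, which also takes reads, was not compared.

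PRKAA1 and PRKAA2 shared run: gtcggcaccttcggcaaagtgaag

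In coding sequence the β genes shared at most 20 bases in a row (68.3% identity) and the γ genes 12 (66.3%). SESN1 and SESN2 shared 12 (60.4%).

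The β subunits hold the complex together and carry a glycogen-binding domain. PRKAB1 (ENSG00000111725, chr12:119667753-119681630, plus strand), which encodes β1, was read at 904, 765 and 770 in vector and at 879, 855 and 742 in nPD-L1. The difference was 0.02 (SE 0.12, adjusted p = 0.954), the smallest of the 10, and its sign turned under several alternatives, for example at -0.02 without vector replicate 2. Leaving out any 1 library moved it by over 1.5 times, between -0.026 and 0.10. PRKAB2 (ENSG00000131791, chr1:147155106-147172550, minus strand), which encodes β2, was read at 323, 337 and 389 in vector and at 353, 452 and 532 in nPD-L1. Its groups overlapped through nPD-L1 replicate 1. The difference was 0.33 (SE 0.16, interval -0.02 to 0.69, adjusted p = 0.394), and the nPD-L1 libraries varied by 20.1% (coefficient of variation) against 9.92% for the vector libraries. The difference was 0.20 without nPD-L1 replicate 3.

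The γ subunits bind AMP, ADP and ATP. PRKAG1 (ENSG00000181929, chr12:49002274-49018825, minus strand), which encodes γ1, was read at 1127, 1233 and 992 in vector and at 1080, 1074 and 911 in nPD-L1. The difference was -0.13 (SE 0.12, adjusted p = 0.695) with overlapping groups. It was -0.05 without vector replicate 2 or nPD-L1 replicate 3 and -0.21 without vector replicate 3. Of its exon bases 12.7% overlap DDN-AS1 on the opposite strand. Because the library kit does not mark strand, reads there cannot be told apart, but DDN-AS1 was read at only 23.2 to 50.4. PRKAG2 (ENSG00000106617, chr7:151556111-151877125, minus strand) encodes γ2, mutated in an inherited heart muscle disease. It was read at 623, 593 and 857 in vector and at 886, 793 and 777 in nPD-L1, so that vector replicate 3 lay within the nPD-L1 range and the other 2 below it. The difference was 0.26 (SE 0.15, interval -0.06 to 0.58, adjusted p = 0.488), and it ranged from 0.16 without vector replicate 2 (adjusted p = 0.616) to 0.43 without vector replicate 3 (adjusted p = 0.0727). The muscle isoform PRKAG3 had no row in the table used here.

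STK11 encodes LKB1, the main upstream kinase of AMPK and a tumour suppressor. STK11 (ENSG00000118046, chr19:1177558-1228435, plus strand) was read at 1405, 1598 and 1463 in vector and at 1445, 1332 and 1227 in nPD-L1. Only nPD-L1 replicate 1 reached into the vector range. The difference was -0.16 (SE 0.10, interval -0.39 to 0.07, adjusted p = 0.574), and -0.10 without nPD-L1 replicate 3. CAMKK2 encodes the calcium-dependent upstream kinase. CAMKK2 (ENSG00000110931, chr12:121237691-121298308, minus strand) was read at 1092, 1164 and 1315 in vector and at 1173, 1083 and 1128 in nPD-L1. The difference was -0.07 (SE 0.10, adjusted p = 0.801) with overlapping groups. It was -0.00031 without vector replicate 3, -0.05 without nPD-L1 replicate 2 and -0.13 without vector replicate 1. Both upstream kinases had lower means in nPD-L1, by ratios of 0.897 and 0.948, and neither passed the test.

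The sestrin genes are induced by stress through transcription factors such as FOXO and ATF4. SESN2 (ENSG00000130766, chr1:28259527-28282491, plus strand, 10 exons, 1 annotated transcript) was read at 1363, 1276 and 1418 in vector and at 1501, 1611 and 1521 in nPD-L1. It was the steadiest gene of the set, with coefficients of variation of 5.27% and 3.80%, and its groups did not overlap. The ratio of the means was 1.14 and the log2 difference 0.19 (SE 0.10, interval -0.02 to 0.40, adjusted p = 0.412). SESN1 (ENSG00000080546, chr6:108986437-109094819, minus strand) was the gene with the lowest level, at 166, 169 and 132 in vector and at 171, 194 and 174 in nPD-L1. Its groups did not overlap by a margin of about 2 scaled reads, and the difference was 0.21 (SE 0.16, adjusted p = 0.630), or 0.10 without vector replicate 3. Of the SESN1 exon bases 7.09% overlap the antisense gene AL390208.1, which was read at 4.20 or less. SESN3, the remaining sestrin gene, was read at 54.5, 65.5 and 60.3 in vector and at 42.9, 62.7 and 100.3 in nPD-L1 (difference 0.11, SE 0.30, adjusted p = 0.902).

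The groups of 3 genes (PRKAA2, SESN1 and SESN2) did not overlap, all with nPD-L1 above vector, where 20.6% of all genes tested did not overlap, made up of 12.0% with nPD-L1 above vector and 8.54% below. Because the 3 were the only genes of the set with separated groups, the 250 bases before their first transcription start (RefSeq, GRCh38.p14, printed 5′ to 3′ on the strand of the gene) are shown, with each CG dinucleotide in capitals.

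PRKAA2 (chr1:56645064-56645313, plus strand): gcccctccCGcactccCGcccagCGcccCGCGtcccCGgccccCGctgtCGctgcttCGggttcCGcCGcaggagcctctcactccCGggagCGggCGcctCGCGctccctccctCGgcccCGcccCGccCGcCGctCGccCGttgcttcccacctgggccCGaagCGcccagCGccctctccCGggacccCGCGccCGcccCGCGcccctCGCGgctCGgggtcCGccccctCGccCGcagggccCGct

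SESN1 (chr6:109094847-109095096, minus strand): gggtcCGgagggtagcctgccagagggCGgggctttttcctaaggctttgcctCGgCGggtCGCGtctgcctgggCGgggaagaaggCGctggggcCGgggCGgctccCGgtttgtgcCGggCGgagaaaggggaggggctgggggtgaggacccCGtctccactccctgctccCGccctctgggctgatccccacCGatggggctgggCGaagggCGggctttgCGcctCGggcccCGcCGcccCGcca

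SESN2 (chr1:28259268-28259517, plus strand): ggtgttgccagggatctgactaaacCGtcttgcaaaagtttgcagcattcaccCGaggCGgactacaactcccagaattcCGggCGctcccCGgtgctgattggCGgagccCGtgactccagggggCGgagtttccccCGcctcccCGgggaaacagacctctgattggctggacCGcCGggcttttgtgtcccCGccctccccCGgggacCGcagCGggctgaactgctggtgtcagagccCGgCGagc

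The 3 stretches held 39, 23 and 19 CG dinucleotides and 83.2%, 74.4% and 65.6% G or C. The table gave 16 promoters (250 bases before the start to 50 after it) for the 10 genes, with a median of 70.0% G or C and 32 CG dinucleotides, against 58.7% and 14 over 35116 promoters. On both strands, 6 motifs were searched. The CRE TGACGTCA, the AP-1 site TGANTCA, the ATF4 composite site TGATGNAA, the E-box CACGTG and the SMAD palindrome GTCTAGAC matched none of the 16, and these letters occur in 1.85%, 7.71%, 3.62%, 7.26% and 0.202% of all promoters. The FOXO site TGTTTAC occurs in 3.42% of all promoters and matched 1 of the 16, in STK11 on the reverse strand at 3 bases after the start. A missing match says only that these letters are not in the window.

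**Figure D2:**
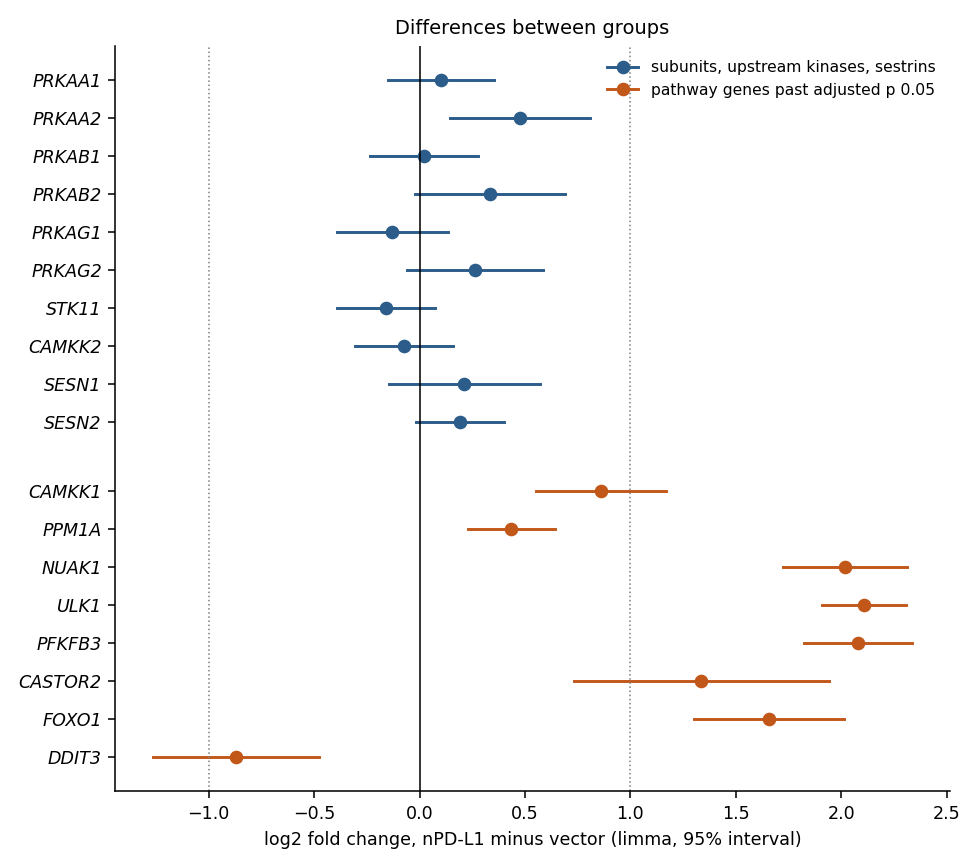
Log2 fold change of nPD-L1 over vector (horizontal axis, limma, point and 95% interval) for the 10 genes (blue) and for the pathway genes that passed an adjusted p of 0.05 (orange), with dotted lines at 2-fold. The 10 blue intervals lie between -0.39 and 0.81, while ULK1, PFKFB3 and NUAK1 lie near 2.

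Relative isoform use was compared within each library, where scaling cancels. α1 made up 80.6% to 83.9% of the α RNA per kb in the vector libraries and 77.4% to 79.6% in the nPD-L1 libraries, with means of 82.6% ± 1.78 and 78.6% ± 1.17 (SD, n = 3 each). The groups did not overlap. The log2 ratio of PRKAA1 to PRKAA2 was lower in nPD-L1 by a difference of -0.37, with an exact permutation p of 0.1 (two-sided, adjusted over 4 ratios 0.4), the smallest p that 3 libraries against 3 allow. β1 made up 67.0% ± 3.82 of the β RNA in vector and 61.9% ± 6.79 in nPD-L1 (exact p = 0.4, adjusted 0.533), and γ1 72.2% ± 6.28 and 66.7% ± 1.65 of the γ RNA (exact p = 0.4, adjusted 0.533). These shares are per kb of all exons and depend on the length used. Per kb of the longest principal transcript, α1 made up a mean of 86.0% in vector and 82.6% in nPD-L1. On that scale β1 made up 82.8% and 79.3%, and γ1 75.8% and 70.8%. In all 3 AMPK pairs the mean share of the first isoform was lower in nPD-L1, and in no pair was the exact test able to pass 0.05. The β difference of -0.31 (log2 ratio) ranged from -0.52 without nPD-L1 replicate 1 to -0.10 without nPD-L1 replicate 3, and was -0.18 without vector replicate 1. The γ difference of -0.39 ranged from -0.64 without vector replicate 3 to -0.22 without vector replicate 2. SESN1 made up 7.23% ± 1.19 and 7.27% ± 0.21 of the SESN1 and SESN2 RNA (exact p = 1.0).

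**Figure D3:**
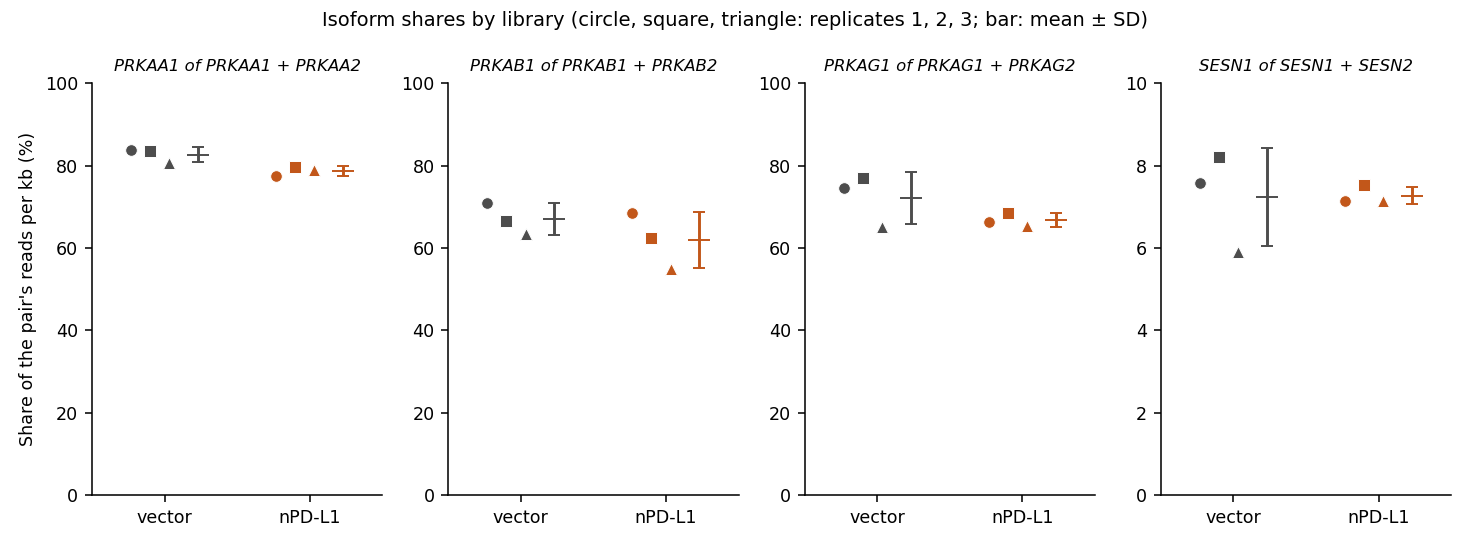
Share of the first gene in the reads per kb of each isoform pair (vertical axes in percent from 0, the last one to 10%), by library, with the mean ± SD of 3. Only for PRKAA1 among PRKAA1 and PRKAA2 do the 2 groups not overlap.

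Levels between genes were compared per kb of exon sequence. SESN2 was highest with a mean of 419 scaled reads per kb over the 6 libraries. PRKAG1 (256) and PRKAA1 (237) followed and their ranges overlapped, but both lay below the range of SESN2. CAMKK2 (167), STK11 (163), PRKAB1 (131), PRKAG2 (112), PRKAB2 (72.8) and PRKAA2 (57.3) formed a chain in which each neighbour overlapped the next, and CAMKK2 lay below the range of PRKAA1. SESN1 was lowest at 32.7, below the range of PRKAA2. So α1, β1 and γ1 each exceeded α2, β2 and γ2 on this scale. The order depends on the length used. With the longest principal transcript in place of all exons, 7 of the 10 ranks moved, and PRKAG1 (630 per kb) and STK11 (541) passed SESN2 (419), whose only transcript is its principal one. The merged exons of PRKAG1 and STK11 span 4184 and 8639 bases and their principal transcripts 1699 and 2611. The order of the isoforms within the 3 AMPK pairs was the same on both scales. On the scale of all exons SESN3 (6.09) lay below all 10 genes. CAMKK1 had a mean of 43.5 over the 6 libraries, between SESN1 and PRKAA2, with 31.0 in vector and 56.0 in nPD-L1. With the longest principal transcript CAMKK1 was at 90.6, above PRKAB2 (73.4).

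Around the kinase, 5 other lists were examined. Of 10 tested genes that activate AMPK or take its phosphate off, 2 were higher and 0 lower in nPD-L1, against 4.04% of all genes called higher and 0.922% called lower, and the median log2 difference of the list was -0.02. CAMKK1, the close relative of CAMKK2, was read at 222, 204 and 263 in vector and at 442, 412 and 395 in nPD-L1. It rose 1.81-fold (log2 0.86, SE 0.14, adjusted p = 0.00392), and its kinase is best known for acting on CaMKI and CaMKIV. PPM1A, a phosphatase, was read at 1027, 1105 and 1030 in vector and at 1399, 1440 and 1432 in nPD-L1, a ratio of 1.35 (log2 0.43, adjusted p = 0.0210). Its call was lost when any 1 of the 3 nPD-L1 libraries or vector replicate 1 was left out (adjusted p up to 0.130). The LKB1 partners STRADA (0.13), STRADB (-0.17), CAB39 (0.07) and CAB39L (-0.25) did not pass the test.

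Among the 12 kinases related to AMPK that LKB1 also activates, 1 was higher and 0 lower, against 4.04% and 0.922% of all genes, and the median log2 difference was 0.14. NUAK1, which acts on myosin phosphatase and cell adhesion, was read at 304, 235 and 308 in vector and at 1172, 1061 and 1180 in nPD-L1. It rose 4.03-fold (log2 2.02, SE 0.13, adjusted p = 6.83e-06). SIK1 was at 65.6, 9.03 and 7.27 in vector and at 41.2, 55.6 and 37.6 in nPD-L1 (log2 1.35, adjusted p = 0.405). Vector replicate 1 alone was high, the difference ran from 0.81 without vector replicate 3 to 2.31 without vector replicate 1 (adjusted p = 0.0102), and edgeR and DESeq2 gave 0.70 and 0.71. SIK1 shares 99.9% of its coding sequence with the annotated copy SIK1B, which is no member of the list. SIK1B was read at 726, 434 and 486 in vector and at 1461, 1569 and 1712 in nPD-L1 (log2 1.56, adjusted p = 0.000314), and reads between the copies are uncertain.

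Of 21 tested AMPK substrates 2 were higher and 0 lower, against 4.04% and 0.922% of all genes, with a median of 0.11. ULK1, the kinase that starts autophagy, was read at 1658, 1638 and 1552 in vector and at 6888, 6901 and 7094 in nPD-L1. It rose 4.31-fold (log2 2.11, SE 0.09, adjusted p = 3.01e-07). PFKFB3, which makes the fructose 2,6-bisphosphate that drives glycolysis, was read at 3503, 2686 and 3105 in vector and at 13639, 12770 and 12669 in nPD-L1. It rose 4.20-fold (log2 2.08, SE 0.11, adjusted p = 2.27e-06). The substrates of lipid and mTORC1 control did not pass, among them ACACA (0.45, adjusted p = 0.168), TSC2 (0.02) and RPTOR (0.03). ACACA passed without nPD-L1 replicate 1 (0.63, adjusted p = 0.0317) and was at 0.31 without nPD-L1 replicate 2 (adjusted p = 0.550). MACROH2A1, the histone variant followed in the study, was at 4352 ± 205 in vector and 4030 ± 164 in nPD-L1 (log2 -0.11, adjusted p = 0.664).

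Of 18 tested genes of sestrin and GATOR nutrient sensing 1 was higher and 0 lower, against 4.04% and 0.922% of all genes, with a median of -0.06. This count is near the share over all genes. CASTOR2, which belongs to an arginine-sensing family, was read at 77.7, 45.2 and 97.7 in vector and at 215, 174 and 151 in nPD-L1 (log2 1.34, SE 0.27, adjusted p = 0.0161). Its value is uncertain, since 456 aligned coding bases are 97.1% identical to CASTOR3, and the call was lost when vector replicate 1 or any 1 nPD-L1 library was left out (adjusted p up to 0.117). The GATOR1 genes DEPDC5 (-0.08), NPRL2 (-0.20) and NPRL3 (-0.07) did not pass.

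Of 9 tested transcription factors known to act on sestrin genes 1 was higher and 1 lower, against 4.04% and 0.922% of all genes. FOXO1 was read at 129, 187 and 143 in vector and at 451, 488 and 502 in nPD-L1, and rose 3.13-fold (log2 1.66, SE 0.16, adjusted p = 0.000118). DDIT3, which encodes the stress factor CHOP, was read at 684, 929 and 627 in vector and at 349, 499 and 374 in nPD-L1. It fell by 0.87 on the log2 scale (SE 0.18, adjusted p = 0.0157), a call that was lost without vector replicate 1, nPD-L1 replicate 1 or nPD-L1 replicate 3 (adjusted p up to 0.108). ATF4 (-0.01), NFE2L2 (0.03) and HIF1A (0.01) did not pass, beside SESN1 at 0.21 and SESN2 at 0.19.

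**Figure D4:**
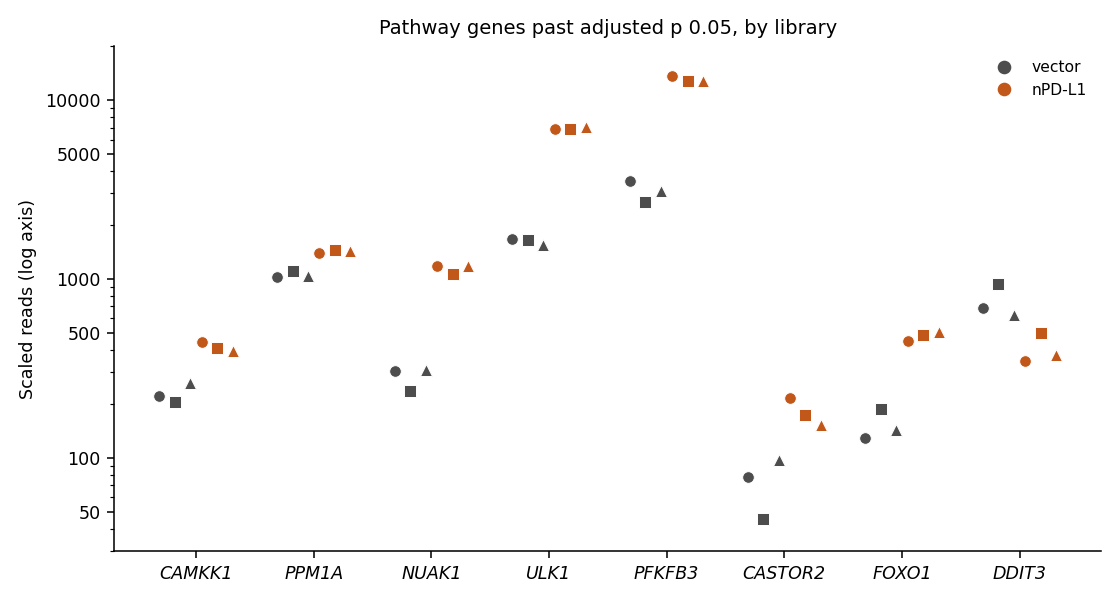
Scaled reads (log axis) of the 8 pathway genes past an adjusted p of 0.05 in the 3 vector (grey) and 3 nPD-L1 (orange) libraries. The 8 were chosen by their calls in these same libraries, so their separated groups add no support. DDIT3 is the gene with nPD-L1 below vector.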

How the data were processed

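Values per library for 27009 genes were taken from the deposited table, and libraries were assigned to groups by their titles. The authors' deposited values are a signal, reads per gene divided by a size factor of the library. Per the submitters' processing notes reads were aligned with HISAT2 2.0.5 to hg38. The counter and annotation are not given in the sources used here. Coordinates and lengths equalled GENCODE 29 for 27004 genes. The deposited group means, fold changes and p-values of the authors were not used. All nonzero values (100%) lay within 0.001 of whole multiples of 1 read in every library. The value of 1 read was 1.01 in vector replicate 1 and nPD-L1 replicate 2, so close to 1 that recovery there is less certain. limma 3.58.1 (R 4.3.3, trend and robust) was fitted on log2(value + 1) for 15076 genes with at least 10 in at least 3 libraries, with Benjamini-Hochberg adjustment over all of them. Fold changes of low genes are understated on this scale. Alternatives were edgeR 4.0.16 and DESeq2 1.42.0 on recovered reads, other scalings, pseudocounts and filters, a replicate block and leaving out each library. Fits were tested on simulated data. Isoform ratios used exact permutation tests (scipy 1.17.1), and coding sequences were aligned with Biopython 1.88. All 10 genes, the isoform genes outside them, CD274, MACROH2A1 and up to 3 called genes per direction in each list were named. The copies SIK1B and CASTOR3 and other list members given as examples were named after their values were seen. The genes and lists were chosen with earlier results of these data known.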

Additional observations from a re-analysis of the deposited data

How the results depend on the processing

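The 10 genes kept their direction and their side of the threshold in 153 fits of single genes, and in the other 7 PRKAB1 turned sign (5) or PRKAA2 passed the threshold (2). PRKAA2 passed with a replicate block and without vector replicate 3, so that 1 gene was called higher there (range 0 to 1 over the left-out libraries) and at an unadjusted p. PRKAB1 was at -0.0039 with upper-quartile factors and ranged from -0.026 to 0.10 over the left-out libraries, SESN3 ranged from -0.20 to 0.40, and the log2 ratio of SESN1 to SESN2 from -0.13 to 0.13.

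The pairing of equal replicate numbers was not borne out (correlations of deviations -0.01, 0.23 and 0.13, and not every library correlated best with its own number). With the replicate block 927 genes were higher and 258 lower, against 609 and 139, with 2 related kinases and 4 substrates higher. At an unadjusted p 1436 were higher and 710 lower, with 3 related kinases, 5 substrates, 2 sestrin and GATOR genes and 2 transcription factors higher. At 2-fold or more 306 were higher and 68 lower, with 0 activation partners higher and 0 transcription factors lower. Leaving out 1 library gave 350 to 793 higher and 77 to 244 lower genes. In the lists it gave 1 to 2 activation partners, 1 to 3 related kinases, 2 to 3 substrates and 0 to 2 sestrin and GATOR genes higher, and 0 to 1 transcription factors lower. The cause of these shifts was not tested. With 3 libraries a group, the 95% intervals of the 10 genes reached 0.21 to 0.36 log2 units to each side, so smaller differences could not be resolved.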
